A study of Homo sapiens with 79 samples.

Results

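The embryonic and fetal globin mRNAs of K562 cells were followed across fRIP libraries of 24 proteins and their input. The members were chosen by gene symbol, with earlier results of these data known: HBG1 and HBG2 (the gamma globins), HBE1 (epsilon), HBZ (zeta), and HBA1 and HBA2 (alpha), which are 6 of the 48453 genes in the deposited table and 6 of the 25442 genes that passed the filter on low values. K562 is an established human erythroleukemia cell line. For fRIP, 0.1% formaldehyde fixes proteins to RNA in intact cells, the cells are sonicated, an antibody to 1 protein is added, and the RNA recovered with the antibody is sequenced after removal of ribosomal RNA. The targets were 6 RNA-binding proteins (RBPs: PABP, HUR, IMP1, ADAR, HNRNPU and HNRNPH1) and 18 chromatin-associated proteins (CAPs: the Polycomb proteins EZH2 and SUZ12, the heterochromatin protein CBX3 and its phosphorylated form phospho-CBX3, the remodelers CHD1, CHD7 and CHD4, the acetyltransferases PCAF and CBP, the methyltransferase subunits WDR5 and RBBP5, the demethylases PHF8 and LSD1, and HDAC1, DNMT1, STAG2, NUP98 and CTCF). There were 3 libraries for each of 22 targets and 2 each for EZH2 and STAG2 (70 in all), beside 9 libraries of input, RNA of the same kind of lysate without an antibody, in 3 sets of 3. The antibody to STAG2 served the study as a control that recovered little RNA, and replicates came from different lysates and dates of 1 cell line.

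Hemoglobin is built from alpha-type and beta-type chains, and its composition changes during development. The alpha-type genes lie on chromosome 16, where HBZ is transcribed mainly in the embryo and HBA1 and HBA2 prevail from the fetus onward. The beta-type genes lie on chromosome 11, where HBE1 is embryonic, HBG1 and HBG2 are fetal, and HBB and HBD are adult. K562 cells are known for making embryonic and fetal chains and almost no adult beta chain. Globin mRNAs are short, spliced, polyadenylated and long-lived, and in red cell precursors they are translated at a high rate.

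The members fall into pairs that short reads cannot fully separate. In hg19, HBG1 lies at chr11:5269499-5271087 and HBG2, as its full-length transcript, at chr11:5274418-5276011, both on the minus strand with 3 exons, and their coding sequences differ at 2 of 441 positions (C227T and C410G, with the base of HBG1 first and positions counted from the start codon). The stretch at the end of coding exon 3 that holds the second difference is shown because it is 1 of only 2 places in the coding sequence where a read can tell the gamma genes apart, with the epsilon gene, HBE1 (3-exon transcript at chr11:5289575-5291175, minus strand), below it. Capitals mark the base that differs between HBG1 and HBG2 and, in HBE1, each base that differs from HBG1.
HBG1: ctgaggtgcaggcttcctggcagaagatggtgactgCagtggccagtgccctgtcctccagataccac
HBG2: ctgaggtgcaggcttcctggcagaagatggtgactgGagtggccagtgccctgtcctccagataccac
HBE1: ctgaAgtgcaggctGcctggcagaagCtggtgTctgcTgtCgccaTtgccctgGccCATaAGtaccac
These are the minus-strand sequences of chr11:5269592-5269659, chr11:5274510-5274577 and chr11:5289702-5289769. The epsilon sequence carries 13 capitals in these 68 bases and differs from HBG1 at 73 coding positions, and 84.9% of the 31-base windows of the HBG1 coding sequence occur in HBG2 against 4.87% in HBE1. The alpha genes are closer still. HBA1 (chr16:226679-227521) and HBA2 (chr16:222875-223709), both on the plus strand, have the same 426 coding bases, so every coding window of 31 bases is shared, whereas HBZ (chr16:202643-204502, plus strand) is 68.5% identical and shares none. A stretch of coding exon 3 is printed to show this, with capitals where a base differs from HBA1.
HBA1: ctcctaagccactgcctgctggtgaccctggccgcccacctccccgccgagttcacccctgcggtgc
HBA2: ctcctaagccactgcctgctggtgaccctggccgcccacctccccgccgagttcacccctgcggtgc
HBZ: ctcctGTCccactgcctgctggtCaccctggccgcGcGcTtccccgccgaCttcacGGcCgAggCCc
These lie at chr16:227282-227348, chr16:223471-223537 and chr16:204271-204337. The reads were short pairs and how reads with several matches were shared out is not given in the sources used here, so the division between HBG1 and HBG2 and between HBA1 and HBA2 is uncertain and each pair was also summed. In the 9 inputs HBG1 was estimated at 0.261 to 0.335 of HBG2, and over all 79 libraries this ratio stayed between 0.224 and 0.397. The HBA1 to HBA2 ratio ran from 2.06 to 3.57 in inputs and from 1.83 to 10.3 over the 76 libraries in which both were above 0. Nearly all HBA1 and HBA2 signal in input was given to shorter annotated transcripts (28.6 of 28.7 FPKM to ENST00000397797 and 10.4 of 10.98 FPKM to ENST00000397806) and not to those with the full coding sequence, so the alpha levels rest on the authors' isoform estimates.

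All 8 genes on the list of K562 markers were at 1 FPKM or more in input. HBG1 and HBG2 are among the 8, so the check of the cells rests on the other 6, which include the erythroid transcription factors GATA1, at a mean of 82.2 FPKM, and KLF1, at 38.3. The summed level of the 6 was 529 to 646 FPKM in inputs and 460.1 to 1649 in fRIPs. Of 6 genes of other cell types, 2 were at 1 FPKM or more, with EPCAM, an epithelial adhesion molecule, the higher of them at a mean of 36.2. The summed level of these 6 genes was 33.8 to 49.6 FPKM in inputs and 19.5 to 67.8 in fRIPs. Depth, read from the FPKM step that 1 fragment adds to genes with a single transcript, was estimated at 1.75 M to 52.7 M fragments for fRIPs (M for 1e+06), with a median of 11.9 M, and at 10.7 M to 27.5 M for inputs. The 3 ADAR libraries were the shallowest, at 1.75 M, 2.08 M and 2.01 M.

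The members did not share 1 level in input. HBG2 was the most abundant, at a lowest of 178, a median of 944 and a highest of 1084 FPKM over the 9 inputs, and its mean ranked 49 among the 25442 genes. HBE1 followed with a lowest of 208, a median of 616 and a highest of 660.1 FPKM (rank 97), and HBG1 with 55.8, 293 and 336 FPKM (rank 241). The alpha-type mRNAs were far lower. HBA1 had a lowest of 6.74, a median of 28.4 and a highest of 39.2 FPKM, HBA2 of 1.98, 12.4 and 17.3 FPKM, and HBZ of 0.517, 8.97 and 14.5 FPKM. Their ranks were 4127 for HBA1, 7937 for HBA2 and 8736 for HBZ, so the description of the set as highly abundant globins held for the beta-type members and not for these. Together the 6 mRNAs took a median of 0.334% of the summed FPKM of an input library, and the adult gene HBB stayed at a mean of 0.275 FPKM.

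One input library stood apart. Input set 1 replicate 1 held the lowest value of every member, for example 178 FPKM of HBG2 against 818 to 1084 in the other 8 inputs, and 0.517 FPKM of HBZ against 5.90 to 14.5. On the log2(FPKM + 1) scale its globin values lay below the mean of the other inputs by between -1.45 (HBE1) and -2.79 (HBZ). The globin pseudogene HBBP1 was lower by -2.09 and AHSP, the chaperone of free alpha chains, by -1.69 in the same library. Of 8309 genes with a mean input of at least 10 FPKM, 262 (3.15%) lay more than 2-fold from the mean of the other inputs there. The calls that changed without this library are named with the comparisons.

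The same kind of spread ran through the fRIPs that used this input set. The set was found for each fRIP as the one nearest to the authors' pooled input value, which assigned 5 targets to set 2 (WDR5, RBBP5, PCAF, NUP98 and CHD1), 6 to set 3 (PABP, HUR, EZH2, PHF8, CHD7 and CBP) and the other 13 to set 1. Within the groups of set 1, the SD of log2(FPKM + 1) pooled over 41 libraries was 1.31 for HBG1, 1.27 for HBG2, 0.834 for HBE1, 1.47 for HBZ, 1.32 for HBA1 and 1.32 for HBA2. In set 2 (18 libraries) it was 0.215 to 0.467 and in set 3 (20 libraries) 0.227 to 0.472. HBG2 in DNMT1 fRIP, for example, was 574, 1267 and 6103 FPKM in the 3 libraries, in CTCF fRIP 312, 449 and 2693, and in CHD4 fRIP 746, 218 and 1077. The members rose and fell together, since in 9 of the 12 set 1 fRIPs with 3 libraries the same library, replicate 3, was highest for each of the 6 mRNAs. Over all groups the within-group SD of HBG1 (0.966) was larger than that of 98.7% of the genes tested, and the median gene had 0.281. Replicate 3 of DNMT1 and CTCF fRIP lay above every input for each member, and replicates 1 of HNRNPH1 and SUZ12 fRIP lay below every input for HBG1, HBG2, HBE1 and HBA1.

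**Figure D1:**
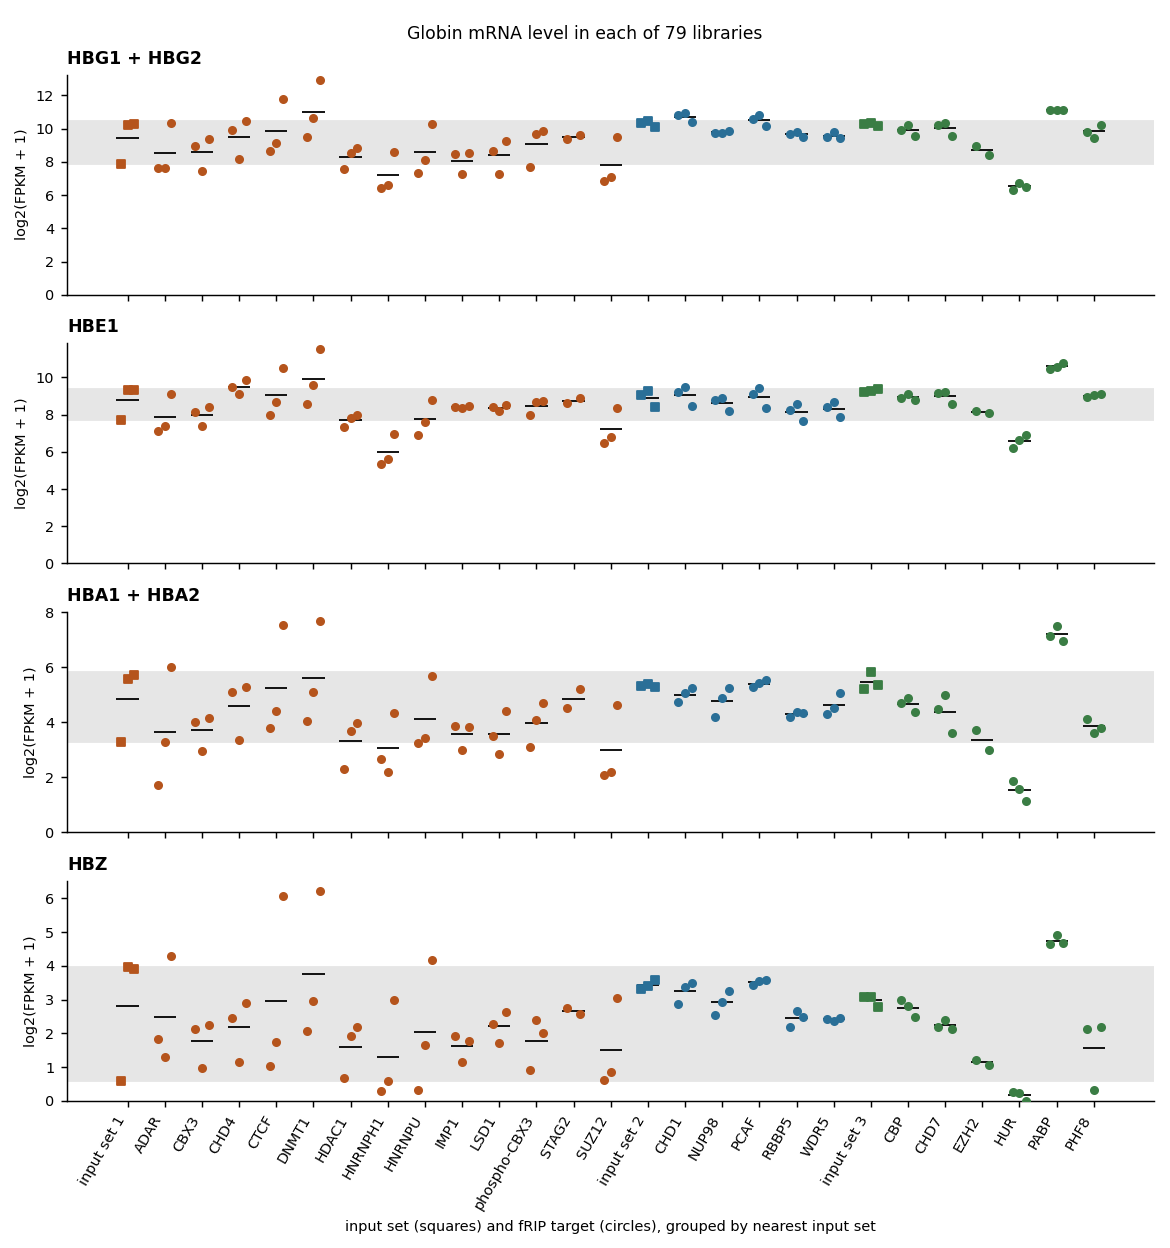
Level of the globin mRNAs in each of the 79 libraries, as log2(FPKM + 1), with the near-identical genes summed in pairs. Squares are input libraries, circles are fRIP libraries, colours are the nearest input set, short lines are group means, and the grey band is the range of the 9 inputs. The 3 PABP libraries lie above the band and the 3 HUR libraries below it in each panel, and the libraries of set 1 scatter far more than those of sets 2 and 3.

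Each fRIP was then compared with the 9 inputs to ask which proteins recovered globin mRNAs above or below their level in the lysate. Calls came from 1 limma fit of log2(FPKM + 1) over all 79 libraries and needed both a Benjamini-Hochberg adjusted p below 0.05 and a change of more than 2-fold. Of the comparisons of 6 mRNAs in 24 fRIPs, 4 were called higher, all in PABP fRIP, and 38 lower, spread over 10 targets, while 102 were not called. Among all tested genes, 6.9% of comparisons were called higher and 5.52% lower. Log2 fold changes were below 0 in 118. HBG1, HBG2, HBE1, HBA1 and HBA2 were each called lower in 7 fRIPs and HBZ in 3. The near-identical genes of a pair were counted as separate members, so these counts are not of independent mRNAs. No library group except PABP lay above all 9 inputs for any member. A member's libraries lay below every input in 7 comparisons, 6 of them HUR and the other HBE1 in HNRNPH1 fRIP, against 12.9% of comparisons over all genes. Without input set 1 replicate 1 this count was 71, against 13.9%, and 50 comparisons were called lower and 3 higher. The call lost was HBZ in PABP fRIP. The 12 gained were all lower, with log2 fold changes down to -1.88: HBG1 in ADAR, HBG1, HBG2 and HBA1 in CBX3, HBG2 and HBA2 in HNRNPU, HBA1 in LSD1, HBZ in HDAC1, IMP1 and SUZ12, and HBZ and HBA2 in PHF8 fRIP.

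**Figure D2:**
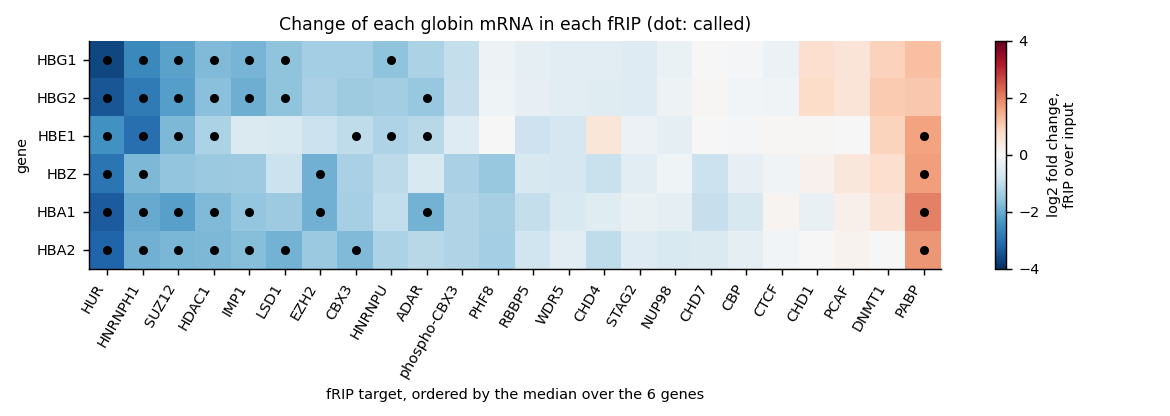
Log2 fold change of each globin mRNA (rows) in each fRIP over the mean of the 9 inputs (columns, ordered by the median over the 6 genes), on the log2(FPKM + 1) scale. Blue is below input, red is above, and dots mark called changes. HUR is at the blue end with 6 called members and PABP at the red end with 4.

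PABP, the poly(A)-binding protein that coats mRNA tails, was the one target with globin mRNAs called higher. HBE1 was 1380.2, 1494 and 1788 FPKM in the PABP libraries, HBA1 was 107, 131 and 96.7, HBZ was 24.0, 28.9 and 24.8, and HBG2 was 1674, 1642 and 1657. For each of the 6 mRNAs all 3 libraries exceeded all 9 inputs, as did 20.3% of the genes tested. The largest change was in HBA1, with a log2 fold change of 2.03 (SE 0.623, limma adjusted p = 0.00458, exact permutation p = 0.00455, the smallest 3 libraries against 9 allow). HBA2 rose by 1.75, HBZ by 1.67 and HBE1 by 1.60 (adjusted p from 0.000851 to 0.0365), though HBZ was not called without input set 1 replicate 1 (1.36, adjusted p = 0.0836) and HBA1 was not called without replicate 2 of each fRIP (1.91, adjusted p = 0.0687). Set 3, to which PABP belongs, kept 1 of its 4 higher calls without replicate 2 and 2 without replicate 1. The smallest change was in HBG2, at 1.07 (SE 0.598, adjusted p = 0.127), which was not called, nor was HBG1 at 1.19. In all, 11.1% of tested genes were called higher in PABP fRIP, and of 80 other protein-coding genes with at least 500 FPKM in input 68 were, with a median log2 fold change of 1.92. The calls depended on scale, since the lowest summed FPKM of a PABP library was 918602 and the highest of an input 614525. With every library rescaled to the same total, HBA1 stood at 1.25, HBE1 at 0.793 and HBG2 at 0.268, and none of the 6 was called by limma (adjusted p from 0.0609 to 0.706), while the median of all genes moved from -0.15 to -0.55. With each library centred on its median gene all 6 were called. With the inputs of set 3 alone 1 was called in the fit of all libraries, and 5 in a fit of only the libraries of set 3, which left out HBG2 (0.799).

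HUR (ELAVL1), which binds AU-rich and U-rich sequences, lay at the other end. HBG1 was 15.3, 19.8 and 19.8 FPKM in the HUR libraries, HBG2 was 64.6, 85.2 and 70.4, and HBE1 was 71.99, 98.9 and 118. The alpha-type mRNAs were near the limit of detection. HBA1 was 2.02, 1.98 and 1.20 FPKM, HBA2 was 0.655 in 1 library and listed at 0 in the others, and HBZ was 0.189 and 0.186 and listed at 0 in the third, and 0.189 FPKM stood for about 1.22 fragments. Each member lay below all 9 inputs in all 3 libraries, as did 13.4% of tested genes, and all 6 were called lower, as were 6.93% of genes. The largest change was in HBG1, at -3.65 (SE 0.616, limma adjusted p = 1.7e-06), and the smallest in HBE1, at -2.42 (SE 0.416, adjusted p = 2.47e-06), both with an exact permutation p of 0.00455. Among the 80 abundant mRNAs 59 were lower, with a median of -1.78, against a median of -3.27 over the 6 globins. All 6 were called with each input set alone, with the matched set and under each scaling tried.

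HNRNPH1, a splicing factor that binds G-rich sequences, also had all 6 members called lower, against 7.9% of tested genes. The largest change was in HBE1, which was 39.6, 49.0 and 124 FPKM and fell by 3.01 on the log2 scale (SE 0.416, limma adjusted p = 5.9e-09). HBZ changed least, at 0.22, 0.491 and 6.97 FPKM, with a log2 fold change of -1.79 (SE 0.691, adjusted p = 0.0205). Replicate 3 was the highest for every member, and for all but HBE1 it lay above the lowest input. The 80 abundant mRNAs had a median of -2.24 with 66 called lower, close to the members' median of -2.31. With libraries of set 1 only, 1 member was called, HBE1 at -2.80.

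The Polycomb proteins SUZ12 and EZH2, partners in the complex that methylates histone H3 on lysine, had 5 and 2 members called lower. In SUZ12 fRIP the background was 8.6% of genes. Among the 80 abundant mRNAs 59 were called lower there, with a median of -1.89 against -1.99 for the members. HBG2 was 86.4, 105 and 541 FPKM there and changed by -2.20 (SE 0.598, limma adjusted p = 0.00145), the largest change, and HBZ, at 0.528, 0.823 and 7.21 FPKM, had the smallest value, -1.58 (SE 0.691, adjusted p = 0.0537), and was not called. In EZH2 fRIP, with 2 libraries, HBZ (1.33 and 1.10 FPKM) and HBA1 (8.13 and 4.79 FPKM) were called lower, against 9.13% of genes, and the 6 log2 fold changes ran from -1.94 to -0.85. There 70 of the 80 abundant mRNAs were called lower, with a median of -1.66 against -1.42 for the members. Fitted with the libraries of set 3 only, all 6 members were called lower in EZH2 fRIP with a median of -1.65, but with 0.1 FPKM added in place of 1, without a filter, with each library centred on its median gene or without either replicate none was called by limma, and 1 was with the inputs of set 3 in the fit of all libraries. Within set 1, 1 member was called in SUZ12 fRIP, HBE1.

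HDAC1, a histone deacetylase, had 5 members called lower, against 5.35% of genes. Of the 80 abundant mRNAs 63 were called lower there, with a median of -1.56 against -1.72 for the members. HBA2 was 0.771, 3.05 and 3.22 FPKM and changed most, by -1.81 (SE 0.63, limma adjusted p = 0.0165), and HBE1 was 158, 229 and 255 FPKM and changed least, by -1.28 (SE 0.416, adjusted p = 0.0102). IMP1 (IGF2BP1), an oncofetal mRNA-binding protein, had 4 called lower, against 10.5% of genes. The abundant mRNAs had 47 of 80 called lower in IMP1 fRIP, with a median of -1.31 against -1.62 for the members. There HBG2 was 264, 116 and 276 FPKM and changed by -1.95 (SE 0.598, adjusted p = 0.00596), whereas HBE1 was 339.8, 327 and 351 FPKM, with a log2 fold change of -0.59 (SE 0.416, adjusted p = 0.269) that was not called. The call of HBG2 in IMP1 fRIP fell short under 5 alternatives, with values from -2.23 to -1.38. LSD1, a histone demethylase, gave a like order, with 3 called lower against 6.66% of genes. The abundant mRNAs had 31 of 80 called lower in LSD1 fRIP, with a median of -0.55 against -1.53 for the members. HBA2 was 2.40, 1.07 and 2.71 FPKM there and changed by -1.88 (SE 0.63, adjusted p = 0.0182), and HBE1, at 334, 294 and 369 FPKM, had a log2 fold change of -0.62 (SE 0.416, adjusted p = 0.284). The call of HBA2 in LSD1 fRIP fell short under 8 alternatives, with values from -2.28 to -1.45.

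ADAR, the adenosine deaminase that edits double-stranded RNA, had 3 members called lower, against 4.31% of genes. Of the 80 abundant mRNAs 64 were called lower, with a median of -1.24 against -1.20 for the members. HBA1 was listed at 0 in 1 library and was 7.43 and 45.9 FPKM in the others, with a log2 fold change of -1.90 (SE 0.623, limma adjusted p = 0.00704, exact permutation p = 0.0864). Without replicate 1 of each fRIP, the ADAR library at 0, it stood at -0.46 and was not called (adjusted p = 0.602), and without replicate 3 it stood at -3.24. HBZ, at 2.57, 1.44 and 18.6 FPKM, had the smallest value, -0.61 (SE 0.691, adjusted p = 0.464), and was not called, but it crossed the threshold under 3 alternatives (values from -1.95 to -0.02). The ADAR values depend on scale, since the summed FPKM of these libraries was 1.5e+06 to 1.98e+06, against at most 614525 in an input. With every library rescaled to the same total, the median of all genes moved from 0.286 to -0.597. Replicate 3 was again the highest for every member, at 966 FPKM of HBG2 against no more than 147 in the others. CBX3, a heterochromatin protein, had HBE1 and HBA2 called lower against 3.65% of genes, and HNRNPU had HBG1 and HBE1 called lower against 2.52%. The 80 abundant mRNAs had 51 called lower in CBX3 fRIP (median -1.25, members -1.35) and 25 in HNRNPU fRIP (median -0.74, members -1.25). Of the 10 fRIPs with lower calls, all but HUR and EZH2 belong to input set 1. That set had 30 lower calls, but 2 when only its own inputs and fRIPs entered the fit (chosen after the data were seen), and 5 when its own inputs were compared in the fit of all libraries. Leaving out replicate 3 of every fRIP gave 53 lower calls in set 1, leaving out replicate 1 gave 9 and leaving out replicate 2 gave 5.

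In the fit of all libraries, the remaining 13 targets had no member called in either direction. DNMT1, the maintenance DNA methyltransferase, had log2 fold changes of 0.00 to 1.06 with replicates more than 10-fold apart, since HBG1 was 159, 334 and 1713 FPKM. CTCF, with HBE1 at 255, 404 and 1450 FPKM, ran from -0.23 to 0.11. WDR5, a subunit of H3K4 methyltransferase complexes, had HBZ at 4.33, 4.14 and 4.48 FPKM and a log2 fold change of -0.67 that was not called, but it was called at -1.03 in a fit of only the libraries of set 2, both without a block (SE 0.189, limma adjusted p = 0.00118) and with the replicate number as a block (SE 0.128, adjusted p = 4.74e-05). Fits of a set's own libraries, chosen after the data were seen, also called HBA1, HBA2 and HBZ lower in PHF8 fRIP (-1.54, -1.62 and -1.43, with HBZ at 3.38, 0.258 and 3.58 FPKM), HBA1 in CHD7 fRIP (-1.16) and HBA1 in RBBP5 fRIP (-1.01). With the block added, HBG2 (1.62, adjusted p = 0.0336) and HBE1 (1.11, adjusted p = 0.0328) were called higher in DNMT1 fRIP. In the blocked fit of set 2, more changes had a limma adjusted p under 0.05, most of them short of 2-fold. Lower at that limit were all members in WDR5 fRIP (adjusted p up to 0.0152) and RBBP5 fRIP (up to 0.00249), and all but HBA1 in NUP98 fRIP (up to 0.0146). HBG1 (0.365) and HBG2 (0.443) were higher in CHD1 fRIP, and no member passed in PCAF fRIP. PCAF, an acetyltransferase, had HBG1 at 339, 433 and 277 FPKM and log2 fold changes of -0.02 to 0.52. STAG2, chosen as a control for background recovery, had HBG2 at 511 and 601 FPKM and 6 log2 fold changes between -0.53 and -0.24. The paper reports that STAG2 fRIP nevertheless enriched a small set of transcripts in both replicates, so its values are not background alone.

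Ordered by geometric mean level, PABP stood first of 25 groups (24 fRIPs and input) for all 6 mRNAs, and HUR stood last for HBG1, HBG2, HBZ, HBA1 and HBA2, with HNRNPH1 last for HBE1. Between these ends the order was not resolved. Neighbouring groups overlapped in 24 of 24 places for HBG2 and HBE1 and in 23 of 24 for each of the other mRNAs. DNMT1 stood second for 5 mRNAs and PCAF for HBA2. By arithmetic mean DNMT1 stood above PABP for HBG1 (735 against 549 FPKM), HBG2 (2648 against 1658) and HBZ (27.7 against 25.9), through its replicate 3. Input ranked between 4 and 7.

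Ratios within a library depend little on its scale where both terms are well above the 1 FPKM added to each, and they showed where members parted. The log2 ratio of the gamma to the alpha mRNAs, (HBG1 + HBG2) over (HBA1 + HBA2), was 4.79 ± 0.224 (SD, n = 9) in input and ranged from 4.52 to 5.08. In PABP fRIP it was 3.96, 3.62 and 4.13, lower by 0.885 on average, so the alpha mRNAs gained more there than the gamma mRNAs. HNRNPH1 fRIP was the other target below input, with a difference of -0.65 and libraries from 3.75 to 4.41. It did not pass with 0.1 FPKM added in place of 1 (-0.50, adjusted exact permutation p = 0.117), and alpha levels were low there and in HUR fRIP, so both ratios lean on the amount added. The ratio passed above input in 5 fRIPs, with differences of 1.20 for PHF8, 0.928 for CHD1, 0.884 for CHD7, 0.635 for DNMT1 and 0.585 for RBBP5. These 7 passed at an adjusted p of 0.0364 by the exact two-sided permutation test over 72 ratios, each at the smallest p that the design allows (0.00455). CBP (difference 0.46, adjusted exact permutation p = 0.0655) and EZH2 (0.554, adjusted p = 0.101) also lay above every input without passing. PHF8, a histone demethylase, shows the pattern in levels, since HBG2 was 692, 544 and 931 FPKM there while HBA1 was 11.3, 9.55 and 9.22 FPKM against a median of 28.4 in input.

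The log2 ratio of HBE1 to the gamma mRNAs was -1.01 ± 0.408 (SD, n = 9) in input. It passed in 2 fRIPs, both higher. In HUR fRIP it was -0.15, -0.08 and 0.388, a difference of 1.06, and in IMP1 fRIP -0.04, 1.11 and -0.08, a difference of 1.34, each at an adjusted p of 0.0364. LSD1 (difference 0.987, exact permutation p = 0.0182, adjusted p = 0.101) and CHD4 (difference 0.963, exact permutation p = 0.0227, adjusted p = 0.109) did not pass. The highest of the 9 inputs, -0.17, was input set 1 replicate 1, the library lowest in gamma mRNA, and the highest IMP1 library was likewise the one lowest in HBG2, at 116 FPKM. The ratio of HBZ to the alpha mRNAs passed in 0 of 24 fRIPs by the exact permutation test, with 3 at an unadjusted p under 0.05. In all, 9 of 72 ratios passed, and 17 had an unadjusted p under 0.05.

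**Figure D3:**
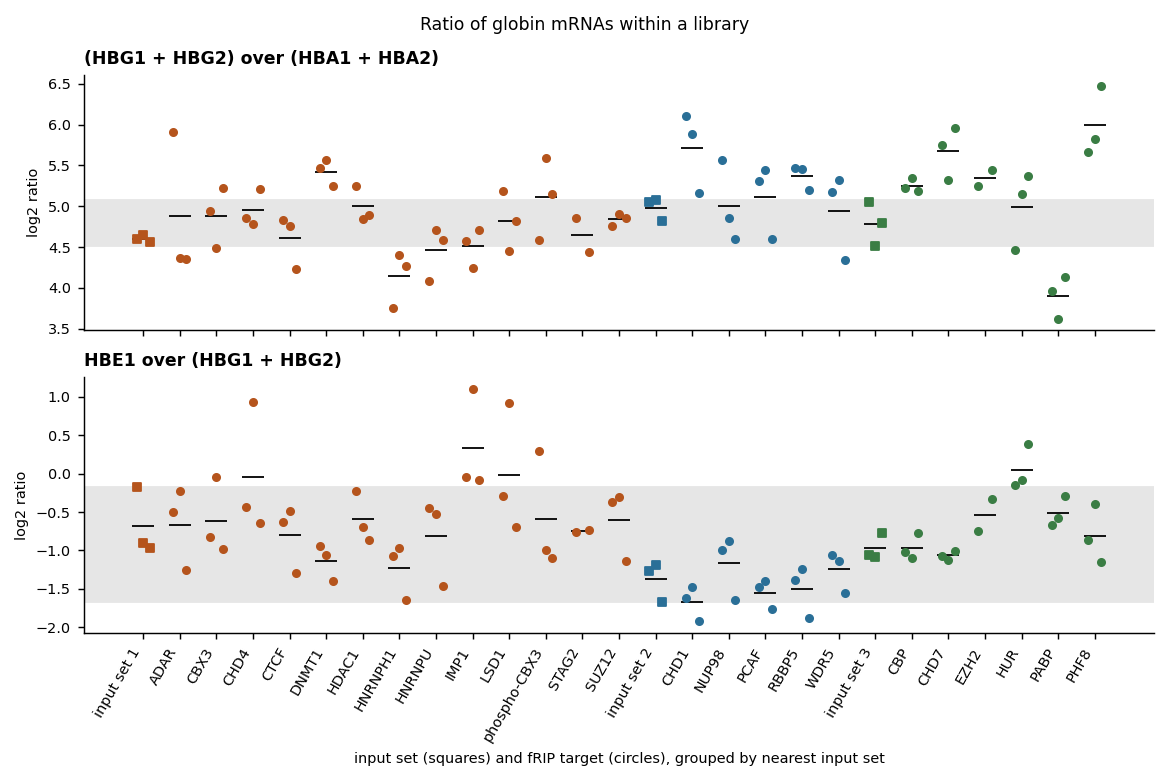
Log2 ratio of summed gamma to summed alpha mRNA (top) and of HBE1 to summed gamma mRNA (bottom) in each library, with 1 FPKM added to each term. Squares are inputs, circles are fRIPs, colours are the nearest input set, short lines are means, and the grey band is the range of the 9 inputs. PABP and HNRNPH1 lie below the band in the top panel and HUR and IMP1 above it in the bottom panel.

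Forms of 1 protein and partners in 1 complex were compared with each other. None of the 18 comparisons of phospho-CBX3 with CBX3, SUZ12 with EZH2 and WDR5 with RBBP5 was called by limma, and 0 had an unadjusted p under 0.05, whereas 17.5% of such comparisons over all genes were called in either direction. Without replicate 3 of each fRIP 3 of the 18 were called. HBE1 was 253, 409 and 433 FPKM in phospho-CBX3 fRIP and 279, 166 and 335 in CBX3 fRIP, a log2 difference of 0.507 with an interval of 2 SE from -0.51 to 1.53. For SUZ12 over EZH2 the difference in HBE1 was -0.94, with an interval from -2.08 to 0.195. SUZ12 belongs to input set 1 and EZH2 to set 3, so target and set cannot be told apart in this contrast. For WDR5 over RBBP5 the interval ran from -1.56 to 1.37 for HBG2 and from -0.85 to 1.18 for HBE1. All intervals use the spread pooled over the 79 libraries. The within-group SD of HBG2 was 0.243 in set 2, to which WDR5 and RBBP5 belong, against 1.27 in set 1, so intervals for this pair are wide. By replicate, HBE1 was 342, 413 and 232 FPKM in WDR5 and 309, 377 and 199 in RBBP5 fRIP, and the fit did not pair them. The lack of calls for this pair therefore does not show that the targets were alike.

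Genes that share a pathway with the members were read from the same fit, where over all genes 6.9% of comparisons were called higher and 5.52% lower. Of the other globin genes, HBB, HBD, HBQ1 and HBBP1 passed the filter and had 4 of 96 comparisons called higher and 13 lower. HBQ1, the theta globin gene of the alpha cluster, rose in PABP fRIP to 89.0 to 124 FPKM (log2 fold change 2.53, limma adjusted p = 5.8e-12) and fell in HUR fRIP to 1.20 to 1.84 FPKM (-2.88, adjusted p = 1.84e-13), as the alpha members did. HBBP1, the pseudogene between the gamma and delta genes, was called in PABP fRIP at 1.68 and not in HUR fRIP at -0.80. The 9 heme synthesis genes had 13 of 216 comparisons called higher and 6 lower. UROD, an enzyme of heme synthesis, rose in PABP fRIP by 1.13 and fell in HUR fRIP by 1.81, and FECH, which inserts the iron, rose in PABP fRIP by 1.09 and in IMP1 fRIP by 1.11 and fell in HNRNPH1 fRIP by 1.29. The 11 tested genes of iron and heme handling had 16 of 264 called higher and 41 lower. FTL, the ferritin light chain, went with the globins in PABP (2.25), HUR (-1.93), HNRNPH1 (-3.63), SUZ12 (-2.75) and ADAR fRIP (-1.53), but was at 0.521 in IMP1, 0.034 in LSD1 and -0.54 in HDAC1 fRIP, none of them called. BLVRB, a biliverdin reductase, was called with the globins in PABP (1.73), HUR (-2.58), HNRNPH1 (-1.06), SUZ12 (-1.45), HDAC1 (-1.08) and IMP1 fRIP (-1.47), and not in LSD1 (-0.68) or ADAR fRIP (-0.22). TFRC, the transferrin receptor, went the other way in PABP (-1.14), SUZ12 (1.48) and ADAR fRIP (1.94). The 12 tested red cell membrane genes had 23 of 288 called higher and 21 lower. RHAG, a membrane protein with a mean of 207 FPKM in input, was called lower in HNRNPH1 (-2.60) and ADAR fRIP (-1.10) and was not called in PABP (0.831), HUR (-0.97) or SUZ12 fRIP (-0.78). Other members of that list differed, with GYPC called higher in PABP fRIP (2.11) and lower in SUZ12 fRIP (-2.34), and EPB41 called lower in PABP fRIP (-1.12) and higher in SUZ12 fRIP (1.66). By share of comparisons, the members were called lower in 26.4%, the 80 abundant mRNAs in 44.3%, iron and heme handling genes in 15.5%, other globin genes in 13.5%, red cell membrane genes in 7.29%, all genes tested in 5.52% and heme synthesis genes in 2.78%.

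Over the 79 libraries, the genes with a mean of at least 10 FPKM whose log2(FPKM + 1) was most like the mean of the 6 members were SOD1 (Pearson r = 0.873), SNRPC (0.869), NDUFS5 (0.867), NME1 (0.86) and HSD17B10 (0.859). These are levels in libraries that share inputs, lysates and depth, and the values are descriptions.

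After the group mean was taken out of each library, a different company appeared. Deviations of the globin mean followed those of erythroid genes named here after their values were seen: SPTB, the beta spectrin of the red cell skeleton (r = 0.911 over 79 libraries), RHAG (0.828), AHSP (0.862), HEMGN (0.896) and HBBP1 (0.935). Spearman's rho for SPTB was 0.867, and r was 0.894 without the 2 libraries farthest from the median. Other genes moved against them, among them ARHGEF6 (-0.935), HCLS1 (-0.902) and LAPTM5 (-0.891), and HCLS1 and LAPTM5 are known from lymphoid and myeloid cells. ALAS2, the erythroid enzyme that starts heme synthesis, followed the globins less closely (0.611, Spearman's rho 0.227). In the 41 libraries of set 1 the r for SPTB was 0.951 and in the 38 of sets 2 and 3 it was 0.646, for AHSP 0.92 and 0.35, for HEMGN 0.964 and 0.361, and for LAPTM5 -0.917 and -0.23. Of the red cell membrane list 5 of 9 genes measured at this level had r above 0.5, of heme synthesis 6 of 9, and of iron and heme handling 3 of 10, against 18.3% of 9011 genes. On the other side, 2 of the 9 heme synthesis genes had r below -0.5, against 7.42% of the 9011 genes, with ALAD, the enzyme that makes porphobilinogen, lowest at -0.83, and EPB41 of the membrane list was at -0.41. In such bulk samples, fewer cells of a kind and less RNA per cell cannot be told apart. The part of this shared movement in the fRIP comparisons of set 1 was not tested.

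**Figure D4:**
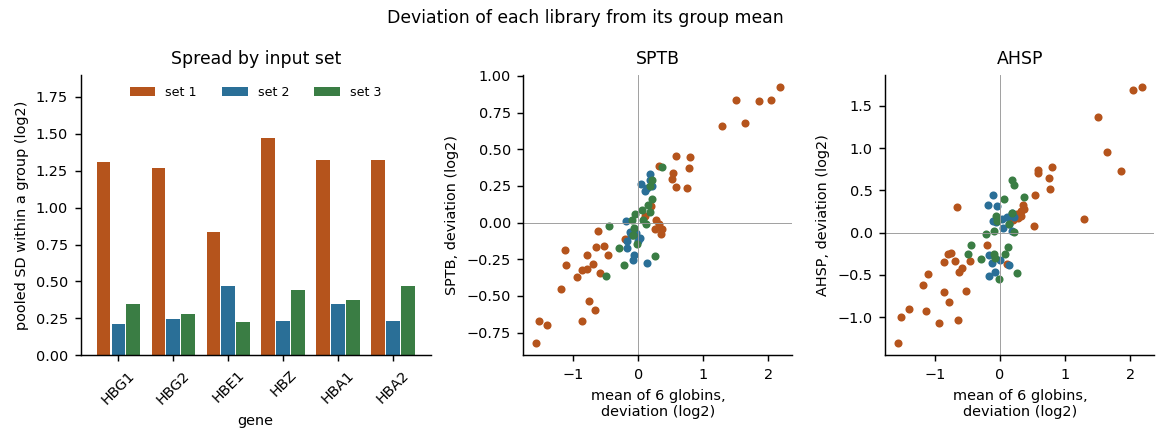
Left, SD of log2(FPKM + 1) within groups of libraries, pooled over the fRIPs and input of each input set, for the 6 mRNAs. Middle and right, deviation of each of the 79 libraries from its group mean for SPTB and AHSP against the mean deviation of the 6 globin mRNAs, coloured by set. Set 1 reaches 1.47 for HBZ, and its libraries spread along a common line while sets 2 and 3 stay near the centre.

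The isoform table adds contrasts within HBE1 and HBG2. Most HBE1 signal was given to ENST00000292896, with 72.9% to 81.3% in the 8 inputs other than set 1 replicate 1 (55.1% there), and 17.3% to 23.9% of it (34.7% there) to ENST00000380237. In IMP1 fRIP the second transcript took 41.5%, 50.8% and 57.6%, in lowest to highest order, in LSD1 fRIP 38.2% to 50.0%, in HUR fRIP 33.2% to 50.2% and in CHD4 fRIP 24.5% to 48.1%. The share also lay above the 8 inputs in phospho-CBX3 fRIP (26.3% to 36.1%), in EZH2 fRIP (25.1% to 31.5%), in PABP fRIP (25.3% to 28.8%) and in STAG2 fRIP, chosen as a background control (27.8% to 34.7%). Both hold the whole HBE1 coding sequence in the annotation used here, whose transcript versions differ from those of the files, so the exons that told them apart are not given. HBG2 was below every input in the IMP1, LSD1 and HUR libraries of lowest level (116, 121 and 64.6 FPKM). Within HBG2, ENST00000336906 took 35.6% to 84.1% in inputs and less in CHD1 (28.8% to 31.6%) and NUP98 fRIP (28.4% to 32.1%). ENST00000444587 took 7.34% to 32.0% in inputs and more in CHD1 (40.2% to 41.2%), NUP98 (34.2% to 39.8%) and RBBP5 fRIP (33.1% to 37.9%). These fRIPs belong to set 2, whose inputs gave ENST00000336906 35.6% to 38.2%. None of these shares was tested.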

How the data were processed

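RNA from fRIPs of 24 proteins and from input of K562 cells was sequenced as paired reads after depletion of ribosomal RNA. The authors aligned reads with TopHat to hg19, with the GENCODE 18 annotation, and deposited FPKM values per gene and per isoform for each library, made with Cuffdiff and Cuffnorm. The submitters' processing notes also name CASAVA 1.4. FPKM scales a gene's fragments by transcript length and library total, so a few very abundant RNAs lower all others. The deposited tables of the authors' own comparisons hold fold changes, p-values and q-values, which were not used. Only their pooled input value was read, to find each fRIP's nearest input set.

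Groups came from the labels, and replicates were biological (separate lysates and dates). The 25442 genes that reached 1 FPKM in 2 or more libraries were fitted as log2(FPKM + 1) with limma 3.58.1 (R 4.3.3, intensity trend), with 1 mean per protein and 1 for the 9 inputs. Fold changes are on that scale and understate those of low genes. P-values were adjusted by Benjamini-Hochberg within each comparison and calls made at 0.05 and 2-fold. Ratios and single levels were tested by two-sided exact permutation over libraries, whose smallest p is 0.00455 for 3 against 9 and 0.0182 for 2 against 9. The scripts were tested on simulated data. Depth was estimated where the low FPKM values of genes with a single transcript were multiples of 1 step, with 85.3% to 92.1% of them within 0.15 of a whole number. Depths are estimates, and precision was judged from the spread of libraries. Coding sequences and positions came from GENCODE 44 on hg19, in which 46055 of 48453 genes had a match. Same-numbered fRIP and input libraries of the matched set deviated together (every r over 0.1) only for CHD1, NUP98, PCAF and WDR5, for which the numbers were taken as pairs. Named in full were, for each fRIP with at least 3 members called 1 way, the members with the largest and the smallest change, and of each list the 3 genes highest in input. The members and lists were chosen with earlier results of these data known. Alternatives changed the pseudocount, filter, scale, inputs, replicates, block and paralog handling.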

Additional observations from a re-analysis of the deposited data

Results flagged for a closer look

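Input set 1 replicate 1 lay far below the other 8 inputs for 3 members. It held 55.8 FPKM of HBG1, 178 FPKM of HBG2 and 6.74 FPKM of HBA1, and its gap to the next input was 0.638, 0.707 and 0.59 of the whole range of the 9 inputs, where 0.493 is the limit. Chance flags about 1 in 20 groups, and the 6 members move together, so these are not 3 separate signs. Its estimated depth, 20.3 M fragments, was within the range of the other inputs. The cause was not tested.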

How the results depend on the processing

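The count of higher calls, 4 and all in PABP fRIP, became 0 when libraries were rescaled to 1 total, with or without globin and mitochondrial genes in it. It became 1 with the matched input set or input set 3 alone, 2 with input set 2 alone, and 7 with the matched set and the replicate block (5 in PABP and 2 in DNMT1 fRIP). Leaving out a replicate gave 1 to 5. The count of lower calls, 38, became 10 with input set 1 alone, 12 with the matched set and 20 with libraries of the matched set only (an alternative added after the data were seen), and 11 to 66 without a replicate. Leaving out 1 input gave 34 to 50. With libraries rescaled to 1 total, the lower calls of set 1 went from 30 to 33, and sets 2 and 3 kept 0 and 8. With the replicate number as a block over all libraries there were 4 higher and 47 lower calls, and in the 4 paired fRIPs the block changed no call when added to the fit of the matched set's libraries. Between fRIPs, 0 of 18 comparisons were called by limma, and 0 to 3 without a replicate. The count of ratios that passed, 9, became 0 with 1 input set or without a replicate, where the smallest p allowed (0.1 or 0.0182) cannot pass, and 12 without input set 1 replicate 1. No value changed direction past its threshold. Of the named fold changes, 395 values under an alternative stayed on their side of the threshold, 49 fell short of it and 12 crossed it, and of the named ratios 17 stayed and 64 fell short. All 6 members were called lower in HUR fRIP under each alternative that kept them as single genes. The shallow ADAR libraries and the roughly 1.22 fragments or none of HBZ in HUR fRIP limit those values.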
